A study of Caenorhabditis elegans with 22 samples.

Results

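The sri and srt genes are 2 families of the serpentine receptor repertoire of Caenorhabditis elegans, and they were taken as every gene whose name is sri or srt followed by a number. In all, 120 such genes (60 sri and 60 srt) had a row in the 3 count tables, out of 20392 genes. RNA was sequenced from cells that had been sorted by fluorescence from third-stage (L3) larvae, with 22 libraries in 11 groups of 2 biological replicates. The study asked which genes become expressed in a differentiated tissue when methylation of histone H3 lysine 9, a mark of silent chromatin, is lost. For the receptor genes the questions were how many stayed at or under 3 counts everywhere, and which were higher in a mutant or with auxin.

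Body wall muscle cells came from animals carrying the gwIs4 transgene, in which the myo-3 promoter drives red fluorescent protein in muscle and the baf-1 promoter drives GFP::lacI. The muscle genotypes were N2 (the wild-type strain), the met-2 allele n4256, the set-25 allele n5021 and both alleles together (the double mutant, written met-2 set-25 in the plots). MET-2 is the enzyme that places mono- and dimethylation on the lysine, and SET-25 places trimethylation. Red-negative cells of the N2 gwIs4 animals formed the non-muscle group, a mixture of all other cell types. Seam cells, a row of epidermal cells, came from the same 4 genotypes carrying wIs51 (scm::gfp) and mjIs15 (ajm-1::mCherry). The last 2 groups were muscle cells of a strain in which MET-2 carries a degron, an auxin-dependent degradation tag, and in which the Peft-3 promoter expresses TIR1, the auxin receptor, in all tissues. These animals were grown without auxin or with auxin from early L1 to L3.

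Library totals were between 11883702 and 24752059 counts. A level of 3 counts therefore corresponded to 0.121 to 0.252 CPM, the count scaled to a common library total of 1000000. The 11 body wall muscle markers summed to between 112403 and 141247 CPM in the sorted muscle libraries, against 16554 to 20226 in non-muscle cells and 2903 to 4818 in seam cells. The 9 seam cell markers summed to between 1351 and 3050 CPM in seam libraries and to at most 90.3 in muscle. Counts over the whole met-2 gene did not drop out in the mutants. They lay between 26.0 and 40.9 CPM in met-2 mutant muscle against 29.9 to 46.5 in muscle with the gene intact, and set-25 counts between 4.11 and 11.6 CPM in set-25 mutant muscle against 9.64 to 11.5. The highest of these, 11.6 CPM, was double mutant replicate 1, and replicate 2 had 4.11. In seam cells the groups did not overlap, with met-2 at 14.0 to 22.1 CPM in mutants against 27.3 to 39.3 and set-25 at 17.1 to 21.3 against 30.5 to 40.6. Counts over a whole gene do not show its deleted part, so the muscle labels have no check here.

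Chemoreceptors of this kind are seven-transmembrane proteins, most of them known only as predicted genes. The ones that have been studied are expressed in a few ciliated sensory neurons, where they are carried to the cilium and signal through G proteins, cyclic GMP and cation channels. Muscle and seam cells are not chemosensory.

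One of these genes, sri-62, was used by the study as a locus for chromatin immunoprecipitation, and its primer pair is shown because it is the only designed sequence that belongs to the set. The whole of each primer is given in lower case, 5′ to 3′. The gene lies on chromosome II.
sri-62 forward: gctgagacgaaggagtctcg
sri-62 reverse: tagccaatttggggtggcaa

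Most of the receptor genes were near silence in every library. Of the 120 genes, 79 (65.8%) had 3 or fewer counts in all 22 libraries, 41 of them sri and 38 srt. A count of exactly 0 in every library was found for 33 genes (27.5%). Over all 20392 genes the shares were 16.2% and 7.27%. The other chemoreceptor families stood at 66% (774 of 1173 genes), so the share in sri and srt was close to that of chemoreceptors in general. The families of 5 or more genes ranged from 22.2% in srr, a family of 9 genes, to 78.7% in srz. Genes at or under 3 counts may still be transcribed at a level these depths could not detect. In bulk libraries of sorted cells, a low level in many cells and a high level in a few cannot be told apart, nor can fewer cells of a type be told from less RNA per cell.

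**Figure D1:**
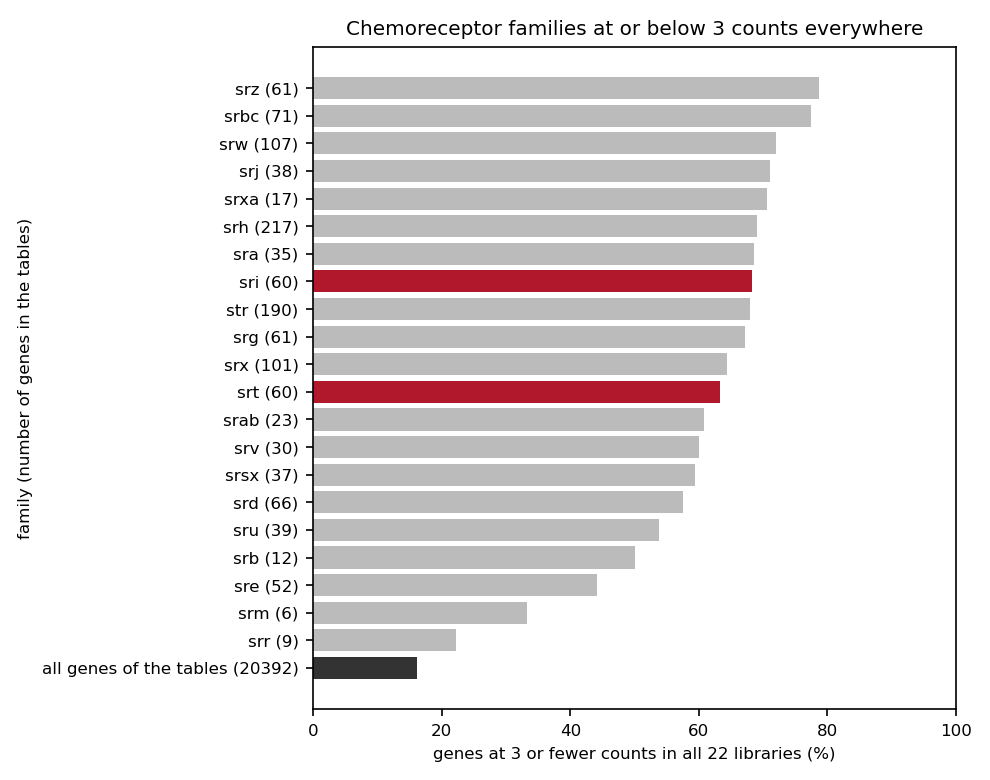
Percentage of genes with 3 or fewer counts in all 22 libraries (x axis) for each chemoreceptor family with 5 or more genes in the tables (y axis, number of genes in parentheses), with sri and srt in red and all genes in black. The sri bar (68.3%) and the srt bar (63.3%) sit among the other families and far above the 16.2% of all genes.

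A total of 41 genes (19 sri and 22 srt) exceeded 3 counts in at least 1 library. Of these, 17 did so in exactly 1 library and 9 in 2 or 3, and none of these 26 genes had more than 23 counts anywhere. The remaining 15 were above 3 counts in 4 or more libraries, and no gene was above it in all 22. Only 9 genes reached 10 counts in both libraries of any group: sri-19, sri-31, sri-62, sri-66, srt-39, srt-41, srt-42, srt-59 and srt-62. The results therefore rest on few genes, and 5 members passed the filter on low counts in muscle, 6 in seam cells, 3 in the degron strain and 4 in the comparison of N2 muscle with non-muscle cells. A gene that passed through the group in which it was high had little room not to differ, so these numbers describe the calls and are no sample of the 120.

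**Figure D2:**
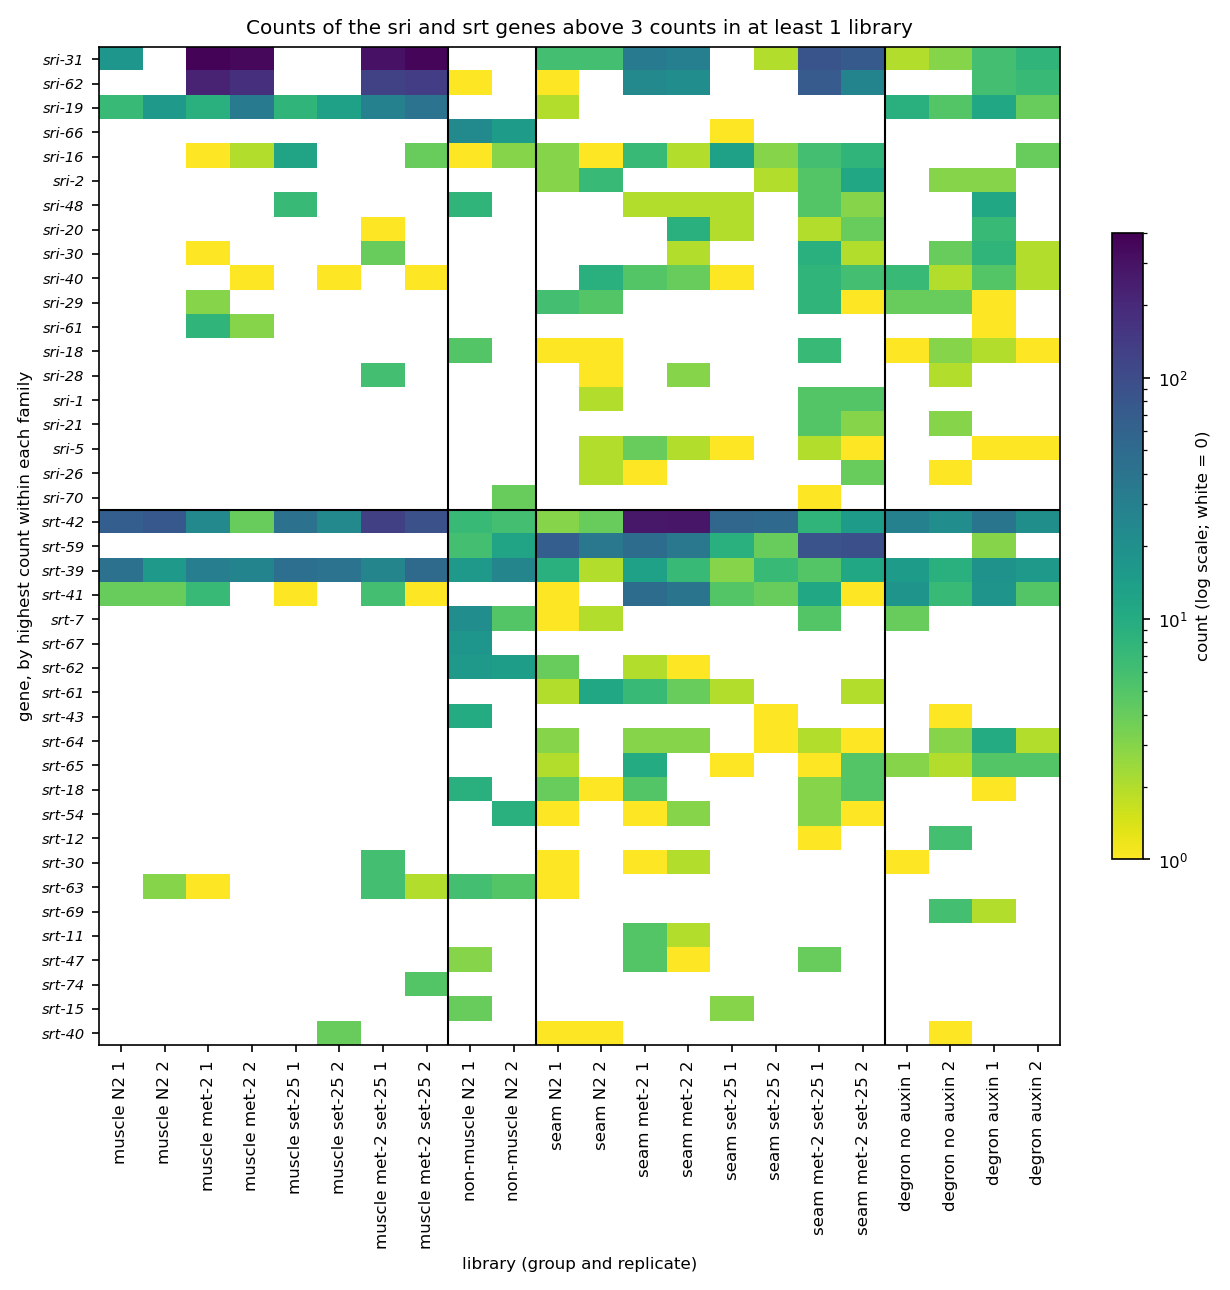
Counts (colour, log scale, white for 0) of the 41 genes with more than 3 counts in at least 1 library (rows, sri above srt, by highest count) in the 22 libraries (columns, by group and replicate). Dark cells are concentrated in sri-31 and sri-62 in met-2 and double mutant libraries, in srt-42 and srt-59 in seam cells, and in srt-42 and srt-39 in muscle, while most other rows hold scattered single counts.

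Annotation placed 67 of the 120 genes on chromosome V (47 of them srt) and 33 on chromosome II (31 of them sri). A total of 61 genes (50.8%) had another sri or srt gene as their immediate neighbour. Of the genes above 3 counts, 24 were on chromosome V and 10 on chromosome II. Averaged over the 22 libraries and divided by exonic length, the highest levels were those of sri-31 (5.39 RPKM, CPM per kilobase of exon), srt-42 (2.85 RPKM), sri-62 (2.54 RPKM), srt-39 (1.17 RPKM), srt-59 (0.666 RPKM) and sri-19 (0.566 RPKM).

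In muscle, loss of MET-2 was accompanied by a large rise of 2 sri genes, sri-31 and sri-62, and of no srt gene. The specific ligands of both receptors are unknown. In N2 muscle sri-62 had 0 counts in both replicates, and it had 0 in both set-25 replicates. It had 228 and 178 counts in met-2 cells and 123 and 135 in the double mutant. The 4 libraries lacking MET-2 thus had at least 123 counts each and the 4 with MET-2 had none. Of 14908 genes with a count in muscle, 5.24% had all libraries lacking MET-2 above the other 4. The mean level was 14.9 ± 1.67 CPM (SD, n = 2) in met-2 and 9.47 ± 1.41 CPM in the double mutant. Against the floor of 3 counts per N2 library, sri-62 was at least 68.4-fold higher in met-2 and at least 43.4-fold higher in the double mutant. Both differences were called by edgeR's quasi-likelihood test with Benjamini-Hochberg adjustment over all genes tested (adjusted p = 3.24e-05 and 5.10e-05), a call being an adjusted p below 0.01 together with a change of over 2-fold.

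For sri-31, counts were 17 and 0 in N2 muscle, 380 and 348 in met-2 cells, 0 and 0 in set-25, and 301 and 360 in the double mutant. All libraries lacking MET-2 lay far above all others, although the N2 replicates disagreed with each other. The mean level rose from 0.594 ± 0.840 CPM in N2 to 26.8 ± 0.0129 CPM in met-2 cells and 24.3 ± 5.09 CPM in the double mutant. On the log2 scale with a pseudocount of 8 the changes were 4.76 and 4.61, and the changes fitted without that pseudocount were 5.42 ± 0.70 and 5.38 ± 0.70 (SE). These too were called by edgeR (adjusted p = 9.35e-04 and 8.95e-04). DESeq2 did not call them (adjusted p = 0.0776 and 0.0574). Both genes stayed called by edgeR when any 1 of the 4 libraries compared was left out.

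These 2 calls stood against a background in which 2.17% of the 9167 genes tested were called higher in met-2 muscle and 2.36% in double mutant muscle. By a rule on counts alone, 3 or fewer in both N2 replicates and 10 or more in both mutant replicates, sri-62 was the only 1 of 115 silent members in each comparison, where 1.72% and 1.65% of all silent genes met the rule. In counts summed over all 120 members, met-2 muscle had 48.98 and 46.04 CPM and N2 muscle 9.57 and 8.76. Without sri-31 and sri-62 the sums were 6.07 and 5.48 CPM in met-2 against 8.38 and 8.76 in N2. The rise of the family total in met-2 muscle was therefore that of the 2 genes. In double mutant muscle the total was 44.28 and 53.84 CPM. Without the 2 genes it was 15.08 and 15.44 CPM, above both N2 values, so the rest of the total was higher there too. These remainders include srt-42, described below, which by mean was lowest in met-2 muscle and highest in double mutant muscle. The contrast between the remainders of these mutants is therefore in part that of srt-42.

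**Figure D3:**
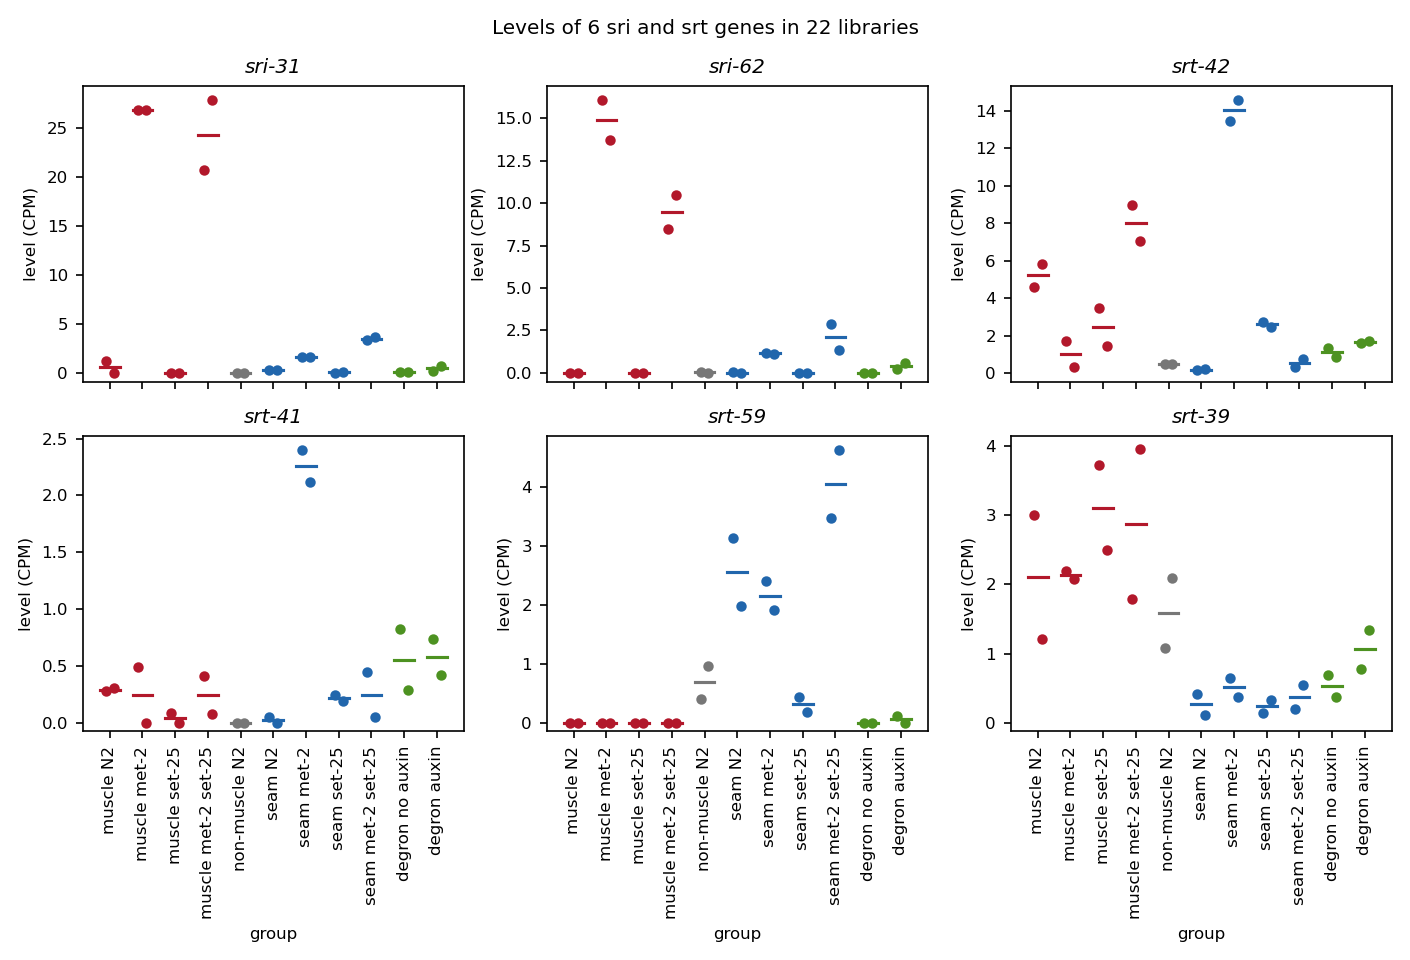
Level in CPM (y axis, linear, own scale per gene) of sri-31, sri-62, srt-42, srt-41, srt-59 and srt-39 in each library by group (x axis), with muscle in red, non-muscle cells in grey, seam cells in blue and the degron strain in green, points for replicates and bars for the mean of 2. The sri genes were high in met-2 and double mutant muscle, srt-42 and srt-41 were highest in met-2 seam cells, and srt-59 stayed at 0 in all 8 libraries of the 4 muscle genotypes.

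Loss of SET-25 alone was not accompanied by a called change of any member in muscle. No gene of the 9167 tested was called higher (0%) in set-25 muscle by edgeR, with 308 genes at an unadjusted p below 0.05 in that direction and 3 called by DESeq2. No member had such a p in the higher direction. In the lower direction sri-31 had one (17 and 0 counts in N2, 0 and 0 in set-25), and DESeq2 called no member. With SET-25 absent in both groups, the comparison of the double mutant with set-25 again called sri-31 and sri-62 (adjusted p = 2.19e-04 and 5.65e-05), among 2.13% of genes called higher. Against the floor, sri-31 was at least 113-fold higher and sri-62 at least 44.0-fold higher. Between the double mutant and met-2 muscle, the change was -0.15 for sri-31 and -0.63 for sri-62 on the pseudocount scale, and neither was called (adjusted p = 0.996 and 0.796).

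The 2 nearest genes on each side of sri-31 and sri-62 were followed as well, and were chosen after the values had been seen. The gene before sri-31, sri-28, had 0 counts in both met-2 replicates and 6 and 0 in the double mutant. On the other side, lido-13 had 4 and 14 counts in N2, 74 and 62 in met-2 cells and 81 and 59 in the double mutant, which did not pass the threshold (adjusted p = 0.0310 and 0.0213). The neighbour of sri-62 on 1 side, sri-61, had 8 and 3 counts in met-2 muscle and 0 in every other muscle library. On the other side set-11, which encodes a SET domain protein, had 2 and 0 counts in N2, 22 and 4 in met-2 cells and 11 and 11 in the double mutant (adjusted p = 0.461 and 0.349). On the opposite strand sri-62 overlaps F34D6.10, a noncoding RNA, and its reads could not be told from those of that gene with certainty if the library kit kept no strand. The other genes 2 steps away, sri-30, nspf-3 and sri-60, had at most 4 counts in any library of the muscle genotypes. In muscle, then, each of the 2 receptor genes had at least 123 counts in every library lacking MET-2, and the sri genes beside them had at most 8. By CPM, lido-13 and lin-8 after sri-31 were also higher in every library lacking MET-2 than in the other 4. Of genes with a count in muscle, 5.24% separated in this way.

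Other transcripts moved in the same libraries. The 8 germline markers summed to 2005 and 1998 CPM in met-2 muscle and 2159 and 2164 in double mutant muscle, against 26.1 to 92.3 CPM in N2 and set-25 muscle. In the non-muscle cells of N2, where these markers summed to 3083 and 2276 CPM, sri-31 had 0 counts in both libraries and sri-62 had 1 and 0. The 15 markers of ciliated sensory neurons, the usual site of chemoreceptor expression, lay between 11.6 and 18 CPM in all 8 muscle libraries, with N2 at 15.4 and 13.6 inside that range. Between 4 and 9 of the 15 markers were above 3 counts in a muscle library.

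In seam cells the same 2 sri genes were higher without MET-2, at far lower levels. For sri-62, counts were 1 and 0 in N2, 24 and 21 in met-2 cells, 0 and 0 in set-25 and 71 and 27 in the double mutant. For sri-31, they were 6 and 6 in N2, 33 and 30 in met-2 cells, 0 and 2 in set-25 and 84 and 73 in the double mutant. For both genes the 4 libraries lacking MET-2 lay above the other 4, as they did for 6.22% of 18116 genes with a count in seam cells. Against N2, the summed counts of sri-62 gave a ratio of 45.7 in met-2 (95% counting interval 7.79 to 1845) and 86.3 in the double mutant (15.1 to 3442), intervals that cover counting error only.

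Not all of these seam cell differences were called. Against N2, sri-62 passed in the double mutant (adjusted p = 0.00946) and not in met-2 (adjusted p = 0.0118), and sri-31 passed in neither (adjusted p = 0.0103 and 0.0264). The call of sri-62 was lost when any 1 of the 4 libraries compared was left out. DESeq2 called both genes in both comparisons. Set against set-25, double mutant seam cells had both sri genes called higher (adjusted p = 5.42e-04 for sri-31 and 1.55e-03 for sri-62), in a comparison that called 19.5% of the 12591 genes tested higher. Without double mutant replicate 1, sri-62 lost that call, and sri-31 and srt-59 were the 2 members called.

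The background in seam cells was 2.08% of genes called higher in met-2 and 2.16% in the double mutant, each against N2. By the rule on counts, sri-62 and srt-41 went from 3 or fewer to 10 or more counts in met-2, where 0.983% of silent genes did so, and sri-62 in the double mutant, where 2.13% did so. Scaled values also shifted as a whole in this tissue. On the pseudocount scale the median of all genes tested was -0.14 in met-2 cells, -0.30 in set-25 cells and 0.26 in the double mutant, each against N2. It was 0.65 for the double mutant against set-25 and 0.43 for it against met-2. The called changes of members were larger than these shifts.

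The muscle and seam cell effects on the sri genes were compared directly. Tissue and transgenes differ together between these libraries, which come from separate count tables, and they cannot be told apart in any such comparison. The fitted log2 effect of met-2 was larger in muscle than in seam cells by 2.87 ± 1.11 for sri-31 and 6.32 ± 2.75 for sri-62, and neither interaction passed the test (adjusted p = 0.241 and 0.310). For sri-31, the interaction was called without N2 muscle replicate 1, the N2 library with 17 counts, which brought the members with a called interaction to 2. For the double mutant the interactions were 2.09 ± 1.09 and 5.28 ± 2.71 (adjusted p = 0.359 and 0.364). In mean level, met-2 muscle had 26.8 CPM of sri-31 and met-2 seam cells 1.62 ± 0.0462 CPM, while N2 muscle and N2 seam cells had 0.594 and 0.306 CPM.

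The ciliated neuron markers summed to 27.8 and 27.7 CPM in N2 seam cells, 21.8 and 21.8 in met-2 cells, 9.32 and 16.3 in set-25 and 42.2 and 28.7 in the double mutant. Seam cell libraries of the double mutant thus had the highest of these sums and set-25 the lowest. The number of sri and srt genes above 3 counts was also highest there and lowest in set-25, with 17 and 13 genes in the double mutant, 14 and 9 in met-2 cells, 6 and 7 in N2 and 4 and 4 in set-25. Over all genes the share above 3 counts was likewise highest in the double mutant (70.9% and 66.8%) and lowest in set-25 (55.9% and 56.0%), with N2 at 66% and 61.4% and met-2 at 63.7% and 61.8%. The 8 germline markers summed to 218 and 216 CPM in met-2, 515 and 486 CPM in the double mutant and between 29.1 and 47.2 CPM in N2 and set-25. The 7 intestine markers summed to 507 and 697 CPM in the double mutant, 239 and 155 in N2, 154 and 78.3 with met-2 mutated and 59.8 and 40.9 with set-25 mutated. The 12 markers of all neurons lay between 246 and 299.6 CPM except in the double mutant, at 438 and 345 CPM. In the double mutant against set-25, edgeR called 6 of 6 intestine markers tested, 9 of 12 neuron markers and 9 of 10 body wall muscle markers higher. The 1 remaining muscle marker tested was called lower. The 11 muscle markers summed to 2903 and 3640 CPM in the double mutant and 4818 and 4496 in set-25. By summed level the muscle list was therefore lower in the double mutant. The part of RNA from these other cell types in the receptor counts was not tested.

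Of the srt genes, srt-42 had another pattern. In N2 muscle srt-42 had 66 and 77 counts, with met-2 mutated 24 and 4, with set-25 mutated 42 and 24, and in the double mutant 130 and 91. In seam cells it had 3 and 4 counts in N2, 269 and 276 in met-2 cells, 55 and 52 in set-25 and 8 and 15 in the double mutant. By mean the met-2 single mutant was thus lowest in muscle and highest in seam cells, and in neither tissue did it overlap with N2. Levels in seam cells were 0.181 ± 0.0568 CPM in N2, 14.0 ± 0.800 CPM in met-2 cells, 2.59 ± 0.169 CPM in set-25 and 0.535 ± 0.300 CPM in the double mutant.

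In seam cells srt-42 was called higher in met-2 cells (fitted log2 change 6.38 ± 0.48, adjusted p = 1.22e-04) and in set-25 (4.11 ± 0.49, adjusted p = 6.20e-04), and the latter comparison called 0.342% of genes higher. The double mutant was lower than each single mutant, by a fitted -5.09 ± 0.41 against met-2 (adjusted p = 3.65e-04) and -2.83 ± 0.41 against set-25 (adjusted p = 7.03e-04). In these 2 comparisons 2.3% and 1.8% of genes were called lower. Against N2 the double mutant was not called (1.29 ± 0.58, adjusted p = 0.198). All 4 calls held without any 1 library of the groups compared.

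In muscle the lower level of srt-42 in met-2 did not pass (fitted -2.37 ± 0.65, adjusted p = 0.0948), nor did the higher level in the double mutant than in met-2 (3.04 ± 0.66, adjusted p = 0.181). With no filter on low counts the first was called lower (adjusted p = 1.34e-03). The difference between tissues was called. The fitted effect of met-2 on srt-42 in muscle minus that in seam cells was -8.78 ± 0.949 on the log2 scale (edgeR, adjusted p = 2.45e-04), where 0.504% of 12887 genes had such an interaction. This call held without any 1 of the 8 libraries compared.

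Nearby on chromosome V, srt-41 had 1 and 0 counts in N2 seam cells and 48 and 40 in met-2 cells. In set-25 it had 5 and 4 counts, and in the double mutant 11 and 1. Its met-2 libraries lay above all other seam cell libraries. The level was 2.26 ± 0.203 CPM in met-2 cells, and the summed counts gave a ratio of 89.4 to N2 (95% counting interval 15.6 to 3569). The gene was called higher in met-2 (adjusted p = 0.00757) but lost the call when any 1 of the 4 libraries was left out, which left srt-42 as the 1 member called. In muscle of the 4 genotypes srt-41 had at most 7 counts in a library, too few to be tested there. Its interaction between tissues was -6.47 ± 2.03 (adjusted p = 0.140).

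By the WBcel235 annotation, srt-41 and srt-42 stand on either side of hsp-16.2 and hsp-16.41, a divergent pair of genes for small heat shock proteins. Each receptor gene is on the same strand as the heat shock gene next to it. The level of hsp-16.41 was 1044 and 1193 CPM in N2 seam cells, 2397 and 2322 in met-2 cells, 2794 and 3284 in set-25 and 631 and 1045 in the double mutant. It was therefore as high in set-25 as in met-2 or higher, while srt-42 was not: per 1000 counts of hsp-16.41 there were 0.135 and 0.185 counts of srt-42 in N2 seam cells, 5.62 and 6.29 in met-2 cells, 0.971 and 0.753 in set-25 and 0.512 and 0.715 in the double mutant. The heat shock gene was called higher in set-25 (fitted 1.73 ± 0.25, adjusted p = 1.47e-03) but not in met-2 (1.20 ± 0.25, adjusted p = 0.0137), and it was called lower in the double mutant than in either single mutant (adjusted p = 1.62e-04 and 1.45e-03).

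Some other genes of the same stretch also had their highest seam cell counts in met-2. The gene beyond srt-41, F36H9.1, had 0 and 6 counts in N2 seam cells and 28 and 34 in met-2 (adjusted p = 0.0644). It lies on the strand opposite to srt-41. On the far side of srt-42, Y46H3A.5 had 0 and 0 counts in N2 seam cells and 28 and 28 in met-2. It had 11 and 4 in set-25 and 0 and 22 in the double mutant. Y46H3A.4, next to srt-42, had its highest count in the double mutant (35 and 7, against 15 and 27 in met-2). F36H9.2, beyond F36H9.1, had its highest in set-25 (223 and 424, against 336 and 267 in met-2). In muscle hsp-16.41 lay between 470 and 1010 CPM over the 8 libraries, while srt-42 had between 0.636 and 11.6 counts per 1000 of it, the lowest in met-2 replicate 2 and the highest in double mutant replicate 2. The part of the heat shock genes in the srt-41 and srt-42 counts was not tested. On the opposite strand srt-42 overlaps Y46H3A.4 and srt-41 overlaps F36H9.10, so reads could not be divided with certainty if the library kit kept no strand.

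**Figure D4:**
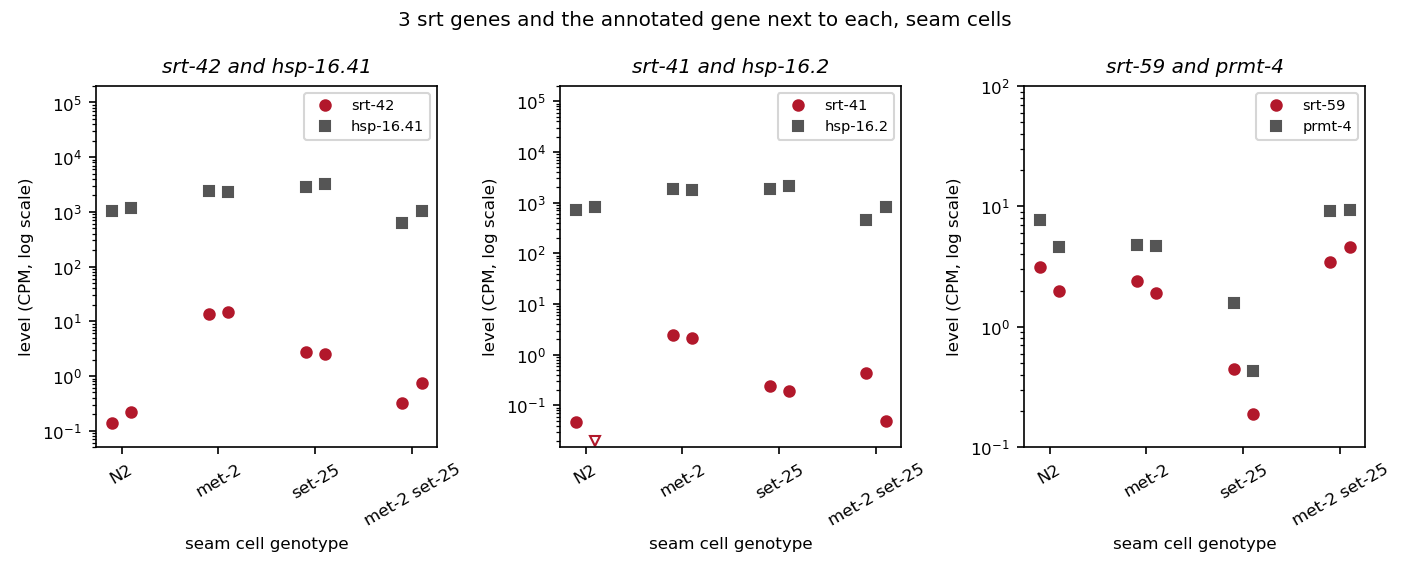
Level in CPM (y axis, log scale, open triangle for a count of 0) in the 8 seam cell libraries by genotype (x axis) of srt-42 with hsp-16.41, srt-41 with hsp-16.2, and srt-59 with prmt-4, receptor genes as red circles and the neighbours as grey squares. The receptor genes of the first 2 panels peaked in met-2 whereas the heat shock genes were about as high in set-25, and in the last panel both genes fell together in set-25.

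Another gene, srt-59, was detected in seam cells and not in muscle. It had 0 counts in all 8 libraries of the muscle genotypes, which allows up to 0.248 CPM (3 counts) in the shallowest of them, and 6 and 12 in non-muscle cells. In seam cells it had 67 and 36 counts in N2, 48 and 36 in met-2 cells, 9 and 4 in set-25 and 86 and 93 in the double mutant. The set-25 libraries lay below all others. The level fell from 2.56 ± 0.814 CPM in N2 to 0.317 ± 0.179 CPM in set-25 (fitted -2.70 ± 0.53, adjusted p = 0.00589), in a comparison that called 10.3% of genes lower. That call was lost without N2 replicate 1, without N2 replicate 2 and without set-25 replicate 2, each leaving 0 members called lower. The double mutant was called higher than set-25 (3.12 ± 0.52, adjusted p = 1.42e-03).

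The gene after srt-59 on the same strand is prmt-4, a predicted protein arginine methyltransferase, and it followed the same course. It had 164 and 84 counts in N2 seam cells, 96 and 88 in met-2 cells, 32 and 9 in set-25 and 225 and 189 in the double mutant, and 0 counts in 7 of the 8 muscle libraries. It was called lower in set-25 (fitted -2.31 ± 0.51, adjusted p = 0.00971) and higher in the double mutant than in set-25 (2.66 ± 0.50, adjusted p = 2.68e-03). In each seam cell library there were between 0.281 and 0.5 counts of srt-59 for every count of prmt-4. Whether the 2 genes share a transcript was not tested.

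The remaining members described here had a tissue pattern with no called change between genotypes. The level of srt-39 was 2.11 ± 1.27 CPM in N2 muscle, 2.14 ± 0.0747 CPM in met-2 cells, 3.11 ± 0.865 CPM in set-25 and 2.87 ± 1.53 CPM in the double mutant, against 0.266 ± 0.220 CPM in N2 seam cells and 1.58 ± 0.721 CPM in non-muscle cells. The 8 libraries of the muscle genotypes had 16 to 51 counts and the seam cell libraries 2 to 13, which did not overlap. The share of all genes that separate in this way was not worked out. Muscle of the degron strain without auxin had 15 and 9 counts (0.529 ± 0.222 CPM), a mean inside the range of seam cells by CPM. The replicate with 15 counts lay above every seam cell library. It follows atn-1, the muscle alpha-actinin gene, on the same strand, and atn-1 was at 1325 ± 206 CPM in N2 muscle and 120 ± 23.9 CPM in N2 seam cells. There were 1.02 to 3.16 counts of srt-39 per 1000 of atn-1 in muscle and 0.702 to 4.73 in seam cells, ranges that overlap.

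The other, sri-19, had 7 and 16 counts in N2 muscle, 9 and 33 in met-2 cells, 8 and 13 in set-25 and 29 and 41 in the double mutant. It had 0 counts in both non-muscle libraries and in 7 of 8 seam cell libraries. The higher level in the double mutant than in N2 (2.59 ± 0.837 against 0.848 ± 0.508 CPM) did not pass (adjusted p = 0.382). On the opposite strand beside it lies Y69E1A.5, at 127 ± 30.2 CPM in N2 muscle, 22.3 ± 10.9 in non-muscle cells and 2.71 ± 0.00868 in N2 seam cells. A noncoding RNA, Y69E1A.12, overlaps sri-19 on its own strand. Counts of the 2 could not be separated here.

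Auxin treatment of the degron strain gave far smaller values. For sri-62, counts were 0 and 0 without auxin and 6 and 7 with auxin, and for sri-31 they were 2 and 3 against 6 and 8. Both auxin replicates lay above both replicates without auxin for each gene, as they did for 22.6% of all 16528 genes with a count in these libraries, at 0.418 ± 0.242 CPM of sri-62 and 0.460 ± 0.302 CPM of sri-31 with auxin. Against the floor, sri-62 was at least 3.20-fold higher, and the summed counts of sri-31 gave a ratio of 3.56 (95% counting interval 1.21 to 12.6). Neither gene passed the filter on low counts, and with no filter neither was called (edgeR, adjusted p = 0.177 for sri-62 and 0.787 for sri-31).

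The 3 members that could be tested with auxin, srt-39, srt-41 and srt-42, were not called by edgeR (adjusted p = 0.720, 0.999 and 0.824) or DESeq2, and 0 had an unadjusted p below 0.05, where 0.913% of 11393 genes were called higher. The rule on counts was met by 0 of 110 silent members and by 0.233% of all silent genes. Counts of srt-42 were 29 and 21 without auxin and 39 and 20 with it, which overlapped. For sri-31 the fitted effect of the met-2 mutation exceeded that of auxin by 3.71 ± 1.56 on the log2 scale, which did not pass (adjusted p = 0.425). For sri-62 the difference could not be estimated with 0 counts in both control groups. Germline markers in this strain summed to 83.6 and 189.9 CPM without auxin and to 469 and 443 CPM with it. The strain, the length of depletion and the transgenes all differ from the muscle mutants, and these cannot be told apart.

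Between N2 muscle and N2 non-muscle cells, srt-42 was called higher in muscle (66 and 77 counts against 7 and 6, adjusted p = 0.00150). In this comparison 9.17% of 12107 genes were called higher, and the median of all genes tested was -1.73 on the pseudocount scale. In the other direction, sri-66 had 0 and 0 counts in muscle and 23 and 15 in non-muscle cells, at least 6.31-fold higher there against the floor. Likewise srt-62 had 0 and 0 against 16 and 14, at least 5.05-fold higher. Neither was called (adjusted p = 0.0140 and 0.0164). On the pseudocount scale the changes were -1.74 for sri-66, -1.53 for srt-62 and 2.44 for srt-42. The pseudocount limits how far counts as low as those of sri-66 and srt-62 can fall, so that scale cannot set them against the median. Fitted without the pseudocount, sri-66 was at -6.69 ± 1.55 and srt-62 at -6.37 ± 1.55 (SE). The median fitted change of all genes tested was -0.574. These 2 genes had at most 4 counts in any library other than the non-muscle pair, including all mutants.

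The machinery that serves chemoreceptors was looked at as a list of 20 genes for receptor transport, G proteins, cyclic GMP signalling and channels. In muscle 8 of them could be tested, in seam cells 10 and in the degron strain 13. None was called by edgeR or DESeq2 in any comparison of a mutant with N2 or of auxin with no auxin, where at most 5 had an unadjusted p below 0.05. The only one called elsewhere by edgeR was egl-4, a cyclic GMP-dependent protein kinase. It was higher in the double mutant than in set-25 seam cells (fitted 0.94 ± 0.12, adjusted p = 3.56e-04) and in N2 muscle than in non-muscle cells (2.59 ± 0.19, adjusted p = 1.10e-04). The seam cell change was 1.47 on the pseudocount scale, which the call uses, while the fitted change was under 2-fold. In that comparison the median of all genes was 0.65 on the pseudocount scale, and 19.5% were called higher. For N2 muscle the change on that scale was 1.07, where 9.17% were called higher. Of the 1173 genes of the other chemoreceptor families, 29 could be tested in muscle and neither edgeR nor DESeq2 called any in the mutant comparisons, with at most 5 at an unadjusted p below 0.05. In seam cells 60 could be tested. Against N2, edgeR called 2 higher and 0 lower in met-2, where 2.08% and 3.11% of all genes tested were. It called 2 higher and 4 lower in set-25, where the shares were 0.342% and 10.3%. In the double mutant it called 1 higher and 1 lower, where they were 2.16% and 0.723%. Against set-25 the double mutant had 8 higher and 4 lower, with shares of 19.5% and 1.8%. Against met-2 it had 1 higher and 2 lower, with shares of 6.14% and 2.3%. With auxin 27 could be tested and none was called by either tool, with 5 at such a p.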

How the data were processed

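RNA of sorted L3 cells was sequenced from Smart-Seq2 libraries. Alignment by the authors was to ce10 with hisat2, run through QuasR, and uniquely mapped reads were counted in WS220 exons, as the study's methods state. The deposited tables hold raw counts per gene and, in a separate column given no other unit, exonic width. Near-identical copies can lose reads by this counting. No column was left out.

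Members and lists were chosen with earlier results of these data known, and neighbouring genes were added after values were seen. Names came from a WormBase ID table: 122 names matched, and 2 had no row. Gene order came from WBcel235, and no coordinates are given because the builds differ. CPM and RPKM used library totals.

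Counts were tested with edgeR 4.0.16 in R 4.3.3 (TMM, filterByExpr, quasi-likelihood test, Benjamini-Hochberg adjustment over all genes tested). A call needed an adjusted p below 0.01 and a change above 1 on the log2 scale, computed from scaled counts plus a pseudocount of 8. Interactions needed only the adjusted p. The 4 genotypes of a tissue shared a fit. Named genes were every called member, members rising from 3 or fewer to 10 or more counts, sri-62, srt-42, and the 3 highest of each family by mean RPKM. The remaining genes with 10 counts in both libraries of a group were added afterwards. Ratios carry exact conditional 95% intervals. The alternatives tried were DESeq2 1.42.0, other scaling factors, no filter, a replicate block, fits of 2 groups only and leaving out each library. The fit was tested on simulated counts. The labels call the replicates biologically independent and name no batch, and the p-values rest on the spread of 2 libraries per group.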

Additional observations from a re-analysis of the deposited data

Results flagged for a closer look

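One result differed between muscle and seam cell libraries by a test of the difference itself. Tissue and transgenes differ together between these libraries and cannot be told apart. The effect of met-2 loss on srt-42 in muscle minus its effect in seam cells was -8.78 on the fitted log2 scale (SE 0.949, adjusted p = 2.45e-04 by edgeR). Counts went from 66 and 77 in N2 muscle to 24 and 4 in met-2 muscle, and from 3 and 4 in N2 seam cells to 269 and 276 in met-2 seam cells. The same interaction for the double mutant was -0.66 ± 0.936 (adjusted p = 0.801). The call held without any 1 of the 8 libraries compared.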

How the results depend on the processing

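Of 270 alternative values over 28 counts of called or silent members, 241 stayed within 1.5 times the value reported. Many of the 28 counts were 0, and a 0 that stayed 0 is among the 241, so this share says little about the calls. With DESeq2, 1 member (sri-62) was called higher in met-2 muscle and 1 in double mutant muscle in place of 2, and sri-31 was lost. In seam cells DESeq2 and no filter on low counts each called 4 members higher in met-2, 2 higher in the double mutant against N2 and 2 lower in the double mutant than in met-2, and fits of 2 groups only called 0 in the double mutant and 0 lower in set-25. Without the filter, 1 member (srt-42) was called lower in met-2 muscle, 2 were higher in N2 muscle than in non-muscle cells and 2 had an interaction of met-2 with tissue, and srt-42 was called higher (1 member, also by DESeq2) in the double mutant than in met-2 muscle. Leaving out a library gave 1 member in met-2 seam cells in each case (range 1 to 1), 0 in double mutant seam cells (range 0 to 0), 0 to 1 lower in set-25 seam cells, 2 to 3 higher in the double mutant against set-25 seam cells and 1 to 2 interactions of met-2 with tissue. A floor of 0 counts left 33 silent members and a floor of 10 left 105. The causes were not tested.

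Replicate numbers were not shown to pair the samples (correlations of deviations -0.03 to 0.19 in the muscle table and 0.006 to 0.13 in seam cells). With the numbers as a replicate block, 0 members were called higher in the double mutant against N2 seam cells, and no other count moved by over 1.5 times. In the degron strain the correlation was -0.20, and the crossed pairing, added after seeing the data, called 0 members, and 191 genes higher and 188 lower of the 11393 tested, against 0.913% higher and 0.816% lower without a block. Leaving out libraries for the interactions and a 2-fold rule on the fitted change were also added afterwards. The latter changed no count of members. With 2 libraries per group, most members fell below the filter on low counts, and a gene at 0 counts is known only to lie under 0.252 CPM in the shallowest library.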
